A study of Homo sapiens with 4 samples.

Results

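Transcripts of 50 genes of DNA replication and nucleotide synthesis were followed in KYSE410, an established line of human esophageal squamous carcinoma cells. The genes were listed by name. They cover origin licensing, the replicative helicase, polymerases and primase, the sliding clamp and its loader, single-strand binding, fragment joining, fork protection and the supply of DNA precursors. Every probe set whose platform annotation held exactly 1 gene symbol, equal to a listed name, was taken, which gave 96 of 54613 probe sets. All 50 genes had a probe set above a filter on dim signal, and 88 of the 96 probe sets passed it, so the list made up 50 of the 14043 genes tested. The cells were either left untreated (2 arrays) or treated with 20 nM YM155 for 6 h (2 arrays), and total RNA was hybridised to Affymetrix 3′ expression arrays. Both groups are the same line, grown in RPMI medium with serum and antibiotics. YM155 is a compound known as an inhibitor of survivin expression, from the gene BIRC5. A protocol field of the labels names cisplatin instead, whereas the treatment labels, the source names and the title name YM155, which is followed. No label gives a vehicle, a culture or a day for an array, so the spread between replicates may be technical. The titles of the YM155 arrays also carry the marks B1 and B2, which the untreated titles lack and whose meaning the titles do not state.

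Replication starts from origins that the origin recognition complex marks. CDC6 and CDT1 then load the MCM2 to MCM7 helicase there in G1, and in S phase CDC45 and the GINS complex turn it on, primase and the polymerases copy both strands, and the clamp PCNA, loaded by replication factor C, keeps the polymerases on DNA. Ribonucleotide reductase, thymidylate synthase and thymidine kinase supply the deoxynucleotides. Many of these genes are transcribed from late G1 by E2F factors, whereas many genes of mitosis are controlled through a CCAAT box and an element called CHR in their promoters.

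RefSeq promoters of GRCh38.p14, from 250 bases before to 50 after a gene's start, were available for 44 of the 50 genes, all but MCM4, MCM5, GINS4, POLD3, RPA2 and RPA3. They were searched on both strands for E2F letters (TTTCCCGC, TTTCGCGC, TTTGCCGC or TTTGGCGC), for CCAAT and for the CHR letters TTTGAA. E2F letters were present for 23 of the 44 genes (52.3%), against 3.99% of all 27305 genes with a promoter and 2 of 26 genes (7.69%) on a list of G2 and M phase genes. CHR letters were present for 2 of the 44 genes (4.55%), against 18.2% of all genes and 19 of 26 G2 and M phase genes (73.1%). CCAAT was present for 28 of the 44 genes (63.6%), 80.8% of the G2 and M phase genes and 39.7% of all genes. The promoters of the replication genes were also richer in G and C (median 65%) than all promoters (58.7%), and the shares were not matched for this. A match describes letters and does not show that a factor binds.

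Promoters are shown for the members on which the comparison turns: RFC4 (chr3:186806433-186806732 on the minus strand), RFC1 (chr4:39366313-39366612 on the minus strand) and ORC2 (chr2:200963611-200963910 on the minus strand), which stood lowest after YM155, and MCM10 (chr10:13161308-13161607 on the plus strand), which stood highest. MCM6 (chr2:135876394-135876693 on the minus strand) and CDC6 (chr17:40287629-40287928 on the plus strand) show the E2F letters, and the kinetochore gene NDC80 (chr18:2571307-2571606 on the plus strand) shows the CHR letters of a G2 and M phase gene. Each is written 5′ to 3′ along its gene, with the letters of any of these motifs on either strand in capitals.
RFC4: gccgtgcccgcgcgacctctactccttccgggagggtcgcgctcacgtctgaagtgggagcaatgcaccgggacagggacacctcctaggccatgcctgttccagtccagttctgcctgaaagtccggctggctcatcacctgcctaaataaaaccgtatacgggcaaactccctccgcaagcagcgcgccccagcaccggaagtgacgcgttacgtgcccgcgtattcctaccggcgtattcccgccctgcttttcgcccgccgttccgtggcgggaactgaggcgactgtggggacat
RFC1: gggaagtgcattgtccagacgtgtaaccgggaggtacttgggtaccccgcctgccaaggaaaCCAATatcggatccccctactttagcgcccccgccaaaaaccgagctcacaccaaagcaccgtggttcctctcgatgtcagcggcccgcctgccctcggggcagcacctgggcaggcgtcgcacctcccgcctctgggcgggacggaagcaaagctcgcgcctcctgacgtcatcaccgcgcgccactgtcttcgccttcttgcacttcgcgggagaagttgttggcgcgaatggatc
ORC2: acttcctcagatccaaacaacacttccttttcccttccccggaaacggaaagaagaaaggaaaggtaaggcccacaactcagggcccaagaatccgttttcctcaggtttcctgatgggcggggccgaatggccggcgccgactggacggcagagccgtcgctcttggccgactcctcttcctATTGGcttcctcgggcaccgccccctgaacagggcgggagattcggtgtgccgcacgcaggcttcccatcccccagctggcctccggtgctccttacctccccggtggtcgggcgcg
MCM10: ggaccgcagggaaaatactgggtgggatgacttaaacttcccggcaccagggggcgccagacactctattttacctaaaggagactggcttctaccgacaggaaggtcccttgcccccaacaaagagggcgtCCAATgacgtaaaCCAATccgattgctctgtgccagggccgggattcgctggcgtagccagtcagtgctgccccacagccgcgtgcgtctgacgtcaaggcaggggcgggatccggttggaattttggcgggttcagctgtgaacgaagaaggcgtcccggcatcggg
MCM6: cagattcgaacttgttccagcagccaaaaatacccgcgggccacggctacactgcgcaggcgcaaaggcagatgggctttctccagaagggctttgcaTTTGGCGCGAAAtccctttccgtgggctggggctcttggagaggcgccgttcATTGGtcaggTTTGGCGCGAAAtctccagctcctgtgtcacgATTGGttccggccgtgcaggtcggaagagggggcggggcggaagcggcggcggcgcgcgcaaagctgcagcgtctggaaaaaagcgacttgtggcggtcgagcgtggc
CDC6: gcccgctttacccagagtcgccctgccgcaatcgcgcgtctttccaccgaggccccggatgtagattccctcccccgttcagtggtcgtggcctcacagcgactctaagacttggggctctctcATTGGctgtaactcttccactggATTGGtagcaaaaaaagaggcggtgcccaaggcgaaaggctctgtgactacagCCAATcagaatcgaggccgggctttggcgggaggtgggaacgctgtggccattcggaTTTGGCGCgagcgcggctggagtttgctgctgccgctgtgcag
NDC80: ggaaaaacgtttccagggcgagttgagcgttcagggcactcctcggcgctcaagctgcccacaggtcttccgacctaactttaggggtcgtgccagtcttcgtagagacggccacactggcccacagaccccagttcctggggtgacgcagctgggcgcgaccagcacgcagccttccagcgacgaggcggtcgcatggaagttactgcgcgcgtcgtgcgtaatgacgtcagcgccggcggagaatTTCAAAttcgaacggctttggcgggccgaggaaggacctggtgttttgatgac
In MCM6 the forward letters TTTGGCGC and the reverse of TTTCGCGC overlap at 2 places and read there as TTTGGCGCGAAA. The RFC4 window held none of the motifs, and those of RFC1, ORC2 and MCM10 held CCAAT in one orientation or the other but no E2F letters, which says only that these letters are not in the windows.

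**Figure D1:**
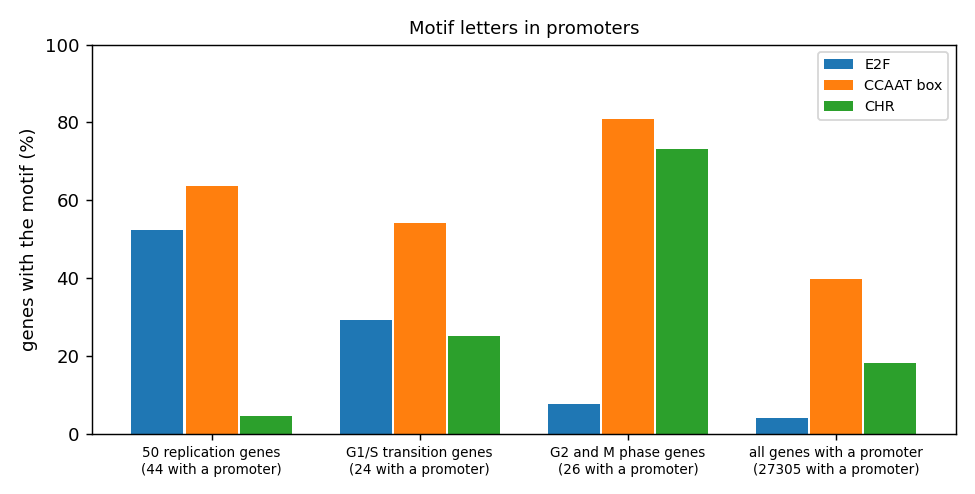
Share of genes (%) with E2F, CCAAT box or CHR letters in a RefSeq promoter, for the replication genes, G1/S transition genes, G2 and M phase genes and all genes with a promoter. E2F letters reach 52.3% in the replication genes and CHR letters 73.1% in the G2 and M phase genes.

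After YM155 the replication genes showed no common direction. Of the 50, 19 had positive and 31 negative differences between the YM155 and untreated means, with a median of −0.038 log2, and over all genes tested 47.1% were positive and the median was −0.015. By limma with Benjamini-Hochberg adjustment over 14043 genes, 0 of the 50 were called higher or lower (0% of all genes were called). The adjusted p ranged from 0.24 to 0.997. At an unadjusted p under 0.05, 0 of the 50 were higher (5.23% of all genes) and 3 were lower (7.48% of all genes): RFC4, RFC1 and ORC2. Both YM155 arrays lay above both untreated arrays for 7 members (19.3% of all genes) and below them for 7 (25.6% of all genes), while the groups overlapped for the other 36. These shares are at or below the background. A difference of 0.5 log2 or more in size was seen for 4 members, or 8%, against 12.6% of all genes. The 95% interval of the difference held 0 for 47 members and lay wholly between −1 and 1 for 45. Its half-width had a median of 0.43 log2, so changes smaller than that mostly could not be told from 0, even before adjustment. After adjustment 0 genes were called, although differences over all genes ran from −2.81 to 2.49 log2. With 2 arrays a group, changes well above 0.43 log2 could therefore also go uncalled.

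**Figure D2:**
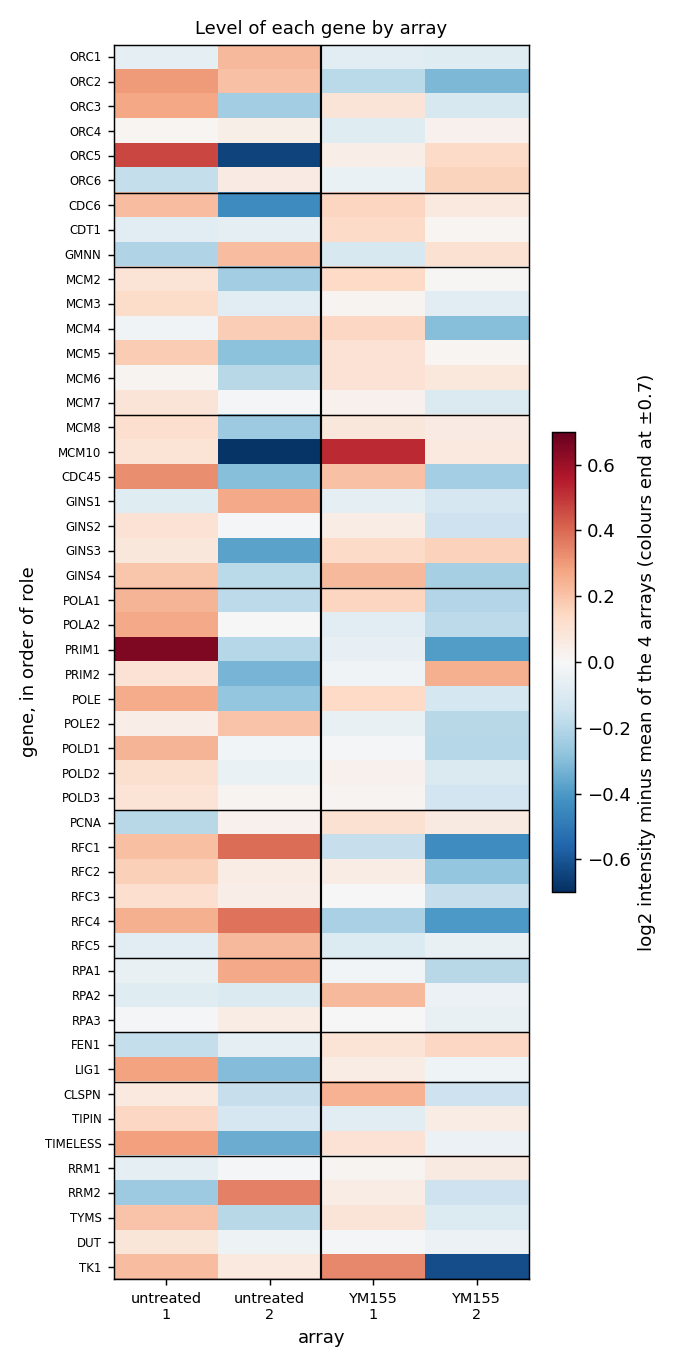
Log2 intensity of each of the 50 genes on each array, minus the gene's mean over the 4 arrays, with genes in order of role and horizontal lines between roles. RFC1, RFC4 and ORC2 are low on both YM155 arrays, while many helicase and polymerase genes differ more between the 2 single untreated arrays than between the group means.

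The gap between the 2 single untreated arrays exceeded the difference between the group means for 37 of the 50 genes, against 59.6% of all genes. Means of 2 arrays vary less than single arrays, so the 2 measures are not alike. For 22 members the YM155 mean lay between the untreated arrays, so the sign of the difference turned with the untreated array used. Over all genes the sign turned for 5266 of 14043. The YM155 mean was below both untreated arrays for 19 members and above both for 9. Against untreated replicate 1 alone the members' median difference was −0.12 log2, with 13 positive. Against untreated replicate 2 alone it was 0.031, with 27 positive. Over all 14043 genes these medians were −0.050 and 0.0075, with 5866 and 7156 positive. In untreated replicate 2, 33 of the 50 replication genes were lower than in replicate 1, with a median of −0.13. Of all 14043 genes, 7659 were lower, with a median of −0.038. By contrast, 27 of 30 G2 and M phase genes were higher, with a median of 0.52. The part of that contrast between the untreated arrays in the differences below was not tested. Across the table, 1690 of 32768 probe sets above the filter differed 2-fold or more between untreated replicates 1 and 2, and 56 did between the YM155 arrays. Untreated replicate 1 differed this far from YM155 replicates 1 and 2 at 739 and 850 probe sets, fewer than from untreated replicate 2, which differed from them at 1811 and 2140. By this count over all probe sets above the filter, untreated replicate 2 was the array that stood apart. The 50 members showed this less clearly. Their median absolute gap to YM155 replicates 1 and 2 was 0.30 and 0.20 log2 from untreated replicate 2. From untreated replicate 1 it was 0.12 and 0.23. The markers fixed for squamous epithelium were bright: all 7 of 10 with a usable probe set exceeded 6 log2, and their summed intensity ran from 14230 to 19050 in untreated and from 21590 to 22270 in YM155 arrays. Of the fibroblast, leukocyte, endothelial and glandular markers, 1 of 20 with a probe set (COL1A1) exceeded 6 log2.

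**Figure D3:**
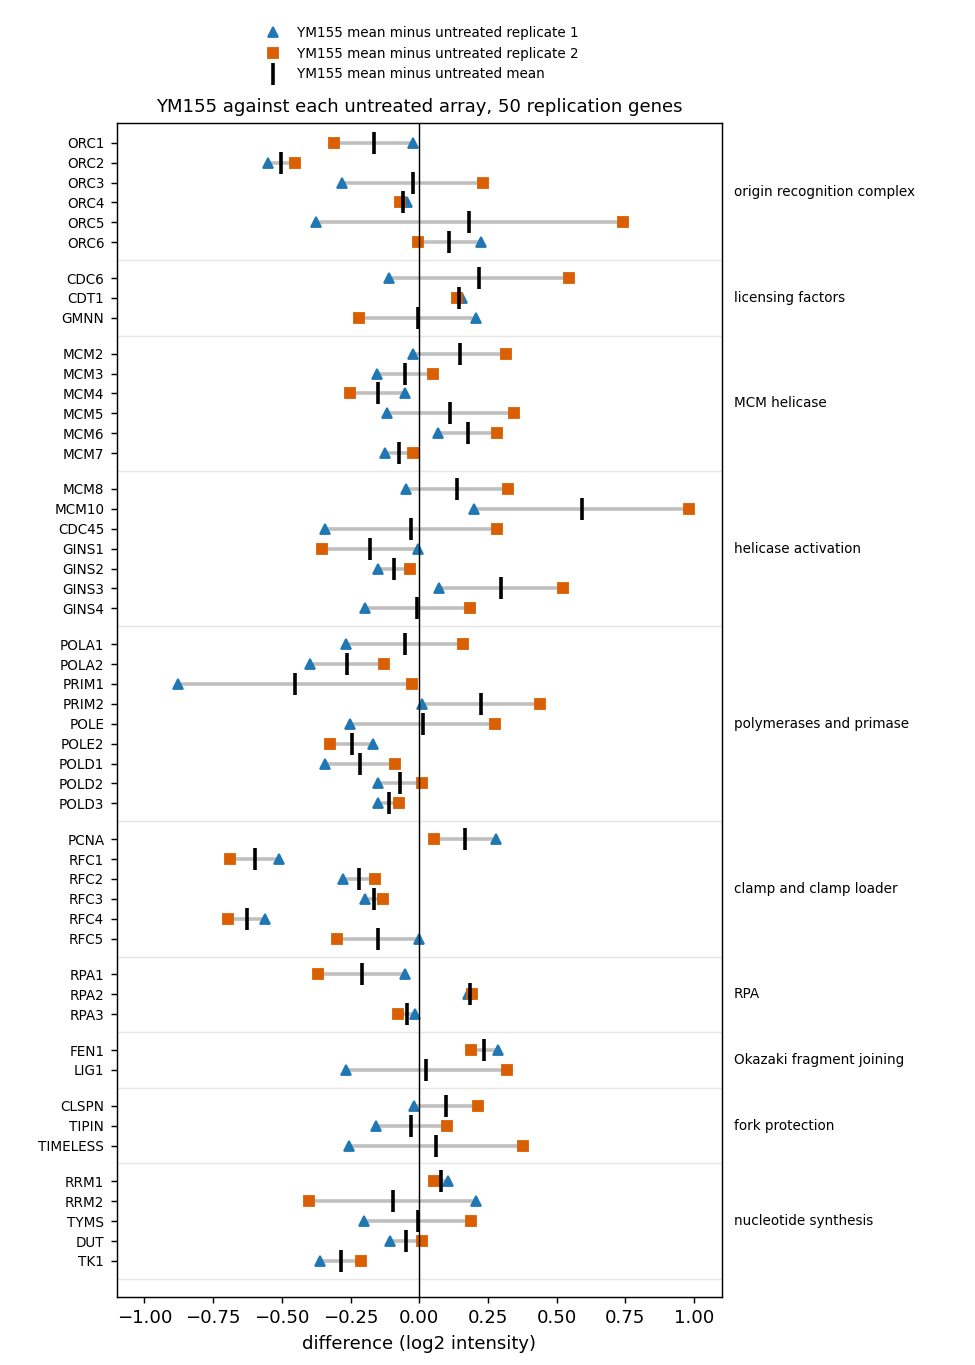
Difference in log2 intensity between the YM155 mean and untreated replicate 1 (triangles), untreated replicate 2 (squares) and the untreated mean (bars) for each gene. The markers of ORC2, RFC1 and RFC4 all lie below −0.4, whereas those of ORC5 run from −0.38 to 0.74.

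Of the 6 origin recognition complex genes, ORC2 had the largest difference and the others lay closer to 0 or turned with the untreated array. ORC2, a core subunit, read 8.20 log2 in untreated replicate 1, 8.11 in untreated replicate 2, and 7.71 and 7.59 after YM155. Both YM155 arrays were below both untreated arrays, by 0.55 and 0.45 log2 on average, and the difference was −0.50 ± 0.13 (SE; limma adjusted p = 0.27). A second, dimmer ORC2 probe set went the same way, from 7.12 and 7.22 to 6.54 and 7.01 log2 (−0.39 ± 0.19). ORC5, another core subunit, was at 9.18 and 8.06 in untreated and at 8.76 and 8.85 in YM155 arrays. Its untreated arrays lay 1.12 log2 apart on either side of the YM155 arrays, the widest untreated gap in the list, so its difference was −0.38 from replicate 1 and 0.74 from replicate 2. Without untreated replicate 1 it was the 1 member of the 50 that limma called higher (adjusted p = 0.0499), in a fit that called 4.3% of all genes higher and 3.71% lower and that takes the lone untreated array to vary like the YM155 arrays; 0 members were called lower in it. Smaller differences were found for ORC1, the ATPase of the complex that cycles with G1, at −0.17 ± 0.15, ORC3 at −0.024 ± 0.22, ORC4 at −0.058 ± 0.13 and ORC6, the smallest subunit, at 0.11 ± 0.16.

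Of the licensing factors, CDC6 and CDT1 had positive differences in their brightest probe sets and neither passed. CDC6, the loading ATPase, was at 7.60 and 6.95 log2 in untreated and at 7.53 and 7.45 in YM155 arrays. The YM155 arrays lay within the untreated range, and the difference was 0.22 ± 0.25. CDT1, the MCM loader that is destroyed in S phase, gave opposite answers in its 2 probe sets. The brighter one, 228868_x_at, was at 6.982 and 6.998 in untreated and at 7.20 and 7.07 in YM155 arrays (0.15 ± 0.13). The other, 209832_s_at, was at 6.74 on both untreated arrays and at 6.17 and 5.94 after YM155, a difference of −0.69 ± 0.14 with no overlap. Over all probe sets its limma adjusted p was 0.352. GMNN, geminin, the inhibitor of CDT1, was at −0.0060 ± 0.20.

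The MCM2 to MCM7 helicase genes stayed within 0.18 log2 of untreated, with 3 positive and 3 negative. MCM6 was at 10.19 and 9.97 log2 in untreated and at 10.27 and 10.24 in YM155 arrays; both YM155 arrays were just above the higher untreated one, and the difference was 0.18 ± 0.14 (SE). MCM4 was at 9.38 and 9.57 in untreated and at 9.54 and 9.10 in YM155 arrays, which overlapped (−0.15 ± 0.20). Its other probe sets above the filter gave −0.22, 0.12 and 0.24, so MCM4 had no common sign. MCM2 stood at 0.15 ± 0.17, MCM5 at 0.11 ± 0.20, MCM3 at −0.052 ± 0.14 and MCM7 at −0.073 ± 0.13. For all 6 genes (59.6% of all genes) the gap between the single untreated arrays exceeded the difference between the group means.

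Among the genes that activate the helicase, MCM10 and GINS3 stood highest. MCM10, which helps to start unwinding after the helicase is assembled, was at 8.79 and 8.01 log2 in untreated and at 9.22 and 8.76 in YM155 arrays. YM155 replicate 1 was the highest array and untreated replicate 2 the lowest, while untreated replicate 1 was slightly above YM155 replicate 2, so the groups overlapped. The difference was 0.59 ± 0.32 (SE; limma adjusted p = 0.526), with 0.20 against untreated replicate 1 alone and 0.98 against replicate 2 alone. All 3 MCM10 probe sets were positive. The one with the clearest gap was at 6.59 and 6.25 in untreated and at 7.14 and 7.08 in YM155 arrays, a difference of 0.69 ± 0.16, and the third stood at 0.27 ± 0.19. GINS3, a subunit of the GINS complex, was at 7.83 and 7.38 in untreated and at 7.89 and 7.92 in YM155 arrays (0.30 ± 0.19). Its second probe set ran from 6.69 and 6.41 to 6.86 and 7.01 (0.39 ± 0.15), and in both the YM155 arrays lay above the untreated ones. Without untreated replicate 2 the GINS3 difference was 0.070. Of the other GINS subunits, GINS1 stood at −0.18 ± 0.17, GINS2 at −0.093 ± 0.14 and GINS4 at −0.0074 ± 0.23. CDC45, the helicase partner of GINS, stood at −0.030 ± 0.28, and MCM8, a helicase of recombination repair, at 0.14 ± 0.17.

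Genes of the polymerases and primase had negative differences in 7 of 9 cases, with a median of −0.11 log2. At an unadjusted p under 0.05, 0 of the 9 were higher (5.23% of all genes) or lower (7.48% of all genes). PRIM1, the catalytic primase subunit, was at 9.94 and 9.09 in untreated and at 9.23 and 8.90 in YM155 arrays. Untreated replicate 1 stood far above the rest, and the difference of −0.45 ± 0.32 was −0.88 against that array alone and −0.026 against untreated replicate 2 alone. POLA2, the accessory subunit of polymerase alpha, was at 8.14 and 7.87 in untreated and at 7.80 and 7.69 in YM155 arrays, with both YM155 arrays lower (−0.26 ± 0.15). POLE2, a subunit of the leading-strand polymerase epsilon, was also lower on both YM155 arrays (−0.25 ± 0.14). The catalytic subunits stood at −0.053 ± 0.22 for POLA1, 0.012 ± 0.23 for POLE and −0.22 ± 0.16 for POLD1 of the lagging-strand polymerase delta. POLD2 and POLD3, also of polymerase delta, stood at −0.069 and −0.11, and PRIM2, the large primase subunit, at 0.22 ± 0.21.

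The clamp loader genes RFC1 to RFC5 all had negative differences in their brightest probe sets, and RFC4 and RFC1 had the largest negative ones of the 50. RFC4, a small ATPase subunit common to the replicative loader and to the alternative loaders, was at 10.57 and 10.71 log2 in untreated and at 10.10 and 9.93 in YM155 arrays. Both YM155 arrays lay below both untreated arrays; the difference was −0.63 ± 0.14 (SE; limma adjusted p = 0.24), a 1.55-fold lower level. RFC1, the large subunit that makes the loader specific for PCNA, was at 8.81 and 8.99 in untreated and at 8.44 and 8.16 in YM155 arrays, again apart, with a difference of −0.60 ± 0.16 (limma adjusted p = 0.282). Its second bright probe set was at 8.88 and 8.86 in untreated and at 8.24 and 7.95 in YM155 arrays (−0.78 ± 0.15). Over the 4 fits that each leave out 1 array, the difference ran from −0.72 to −0.54 for RFC4, −0.73 to −0.46 for RFC1 and −0.56 to −0.44 for ORC2.

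RFC2 (−0.22 ± 0.17) and RFC3 (−0.16 ± 0.13), also small loader subunits, were negative in each of their probe sets above the filter. RFC5 was at 8.74 and 9.04 in untreated and at 8.71 and 8.76 in YM155 arrays (−0.15 ± 0.16), with both YM155 arrays close to untreated replicate 1. Its other probe sets went apart: 203210_s_at ran from 6.82 and 6.88 to 6.77 and 6.18 (−0.38 ± 0.23), and 213734_at ran from 7.13 and 7.23 to 7.42 and 8.10 (0.58 ± 0.25). RFC5 was the 1 member with probe sets past 0.3 log2 in both directions. The clamp itself, PCNA, stood at 0.17 ± 0.14, with both YM155 arrays above both untreated ones by a small margin.

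RPA genes encode the trimer that coats single-stranded DNA. RPA1, its large subunit, was at 10.40 and 10.72 log2 in untreated and at 10.44 and 10.26 in YM155 arrays, where untreated replicate 2 was highest and the groups overlapped (−0.21 ± 0.17). Its other probe sets gave −0.54 and −0.23. RPA2 was at 8.23 and 8.22 in untreated and at 8.55 and 8.28 in YM155 arrays, higher on both (0.18 ± 0.15), and RPA3 was at −0.046 ± 0.12. FEN1, the flap nuclease that trims Okazaki fragments, was at 9.72 and 9.82 in untreated and at 9.98 and 10.03 in YM155 arrays; the groups were apart, with a difference of 0.24 ± 0.13. A second FEN1 probe set gave −0.012 ± 0.17. LIG1, the ligase that seals the fragments, was at 8.46 and 7.87 in untreated and at 8.23 and 8.15 in YM155 arrays, between the untreated ones (0.025 ± 0.23). The fork protection genes were within 0.1 log2 of untreated. CLSPN, the checkpoint adaptor claspin, was at 6.07 and 5.84 in untreated and at 6.25 and 5.86 in YM155 arrays (0.097 ± 0.19), and TIMELESS was at 8.73 and 8.09 in untreated and at 8.54 and 8.40 in YM155 arrays (0.061 ± 0.25). TIPIN, the partner of TIMELESS, was at −0.028 ± 0.15.

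Nucleotide synthesis genes had 4 negative differences of 5, with a median of −0.048, and some had probe sets that went both ways. RRM2, the S phase subunit of ribonucleotide reductase, was at 11.05 and 11.66 log2 in untreated and at 11.35 and 11.16 in YM155 arrays (−0.097 ± 0.24). Its other probe set, 201890_at, was at 10.65 and 10.89 in untreated and at 11.07 and 11.09 in YM155 arrays, which lay above the untreated ones (0.31 ± 0.14). RRM1, the large subunit, stood at 0.079 ± 0.12 and its other probe set at −0.48 ± 0.30. TK1, thymidine kinase, was at 8.20 and 8.05 in untreated and at 8.32 and 7.36 in YM155 arrays, so that YM155 replicates 1 and 2 were the highest and the lowest of the 4 (−0.29 ± 0.34). TYMS, thymidylate synthase, stood at −0.0059 ± 0.19, and DUT, the dUTPase that keeps uracil out of DNA, at −0.048 ± 0.13.

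**Figure D4:**
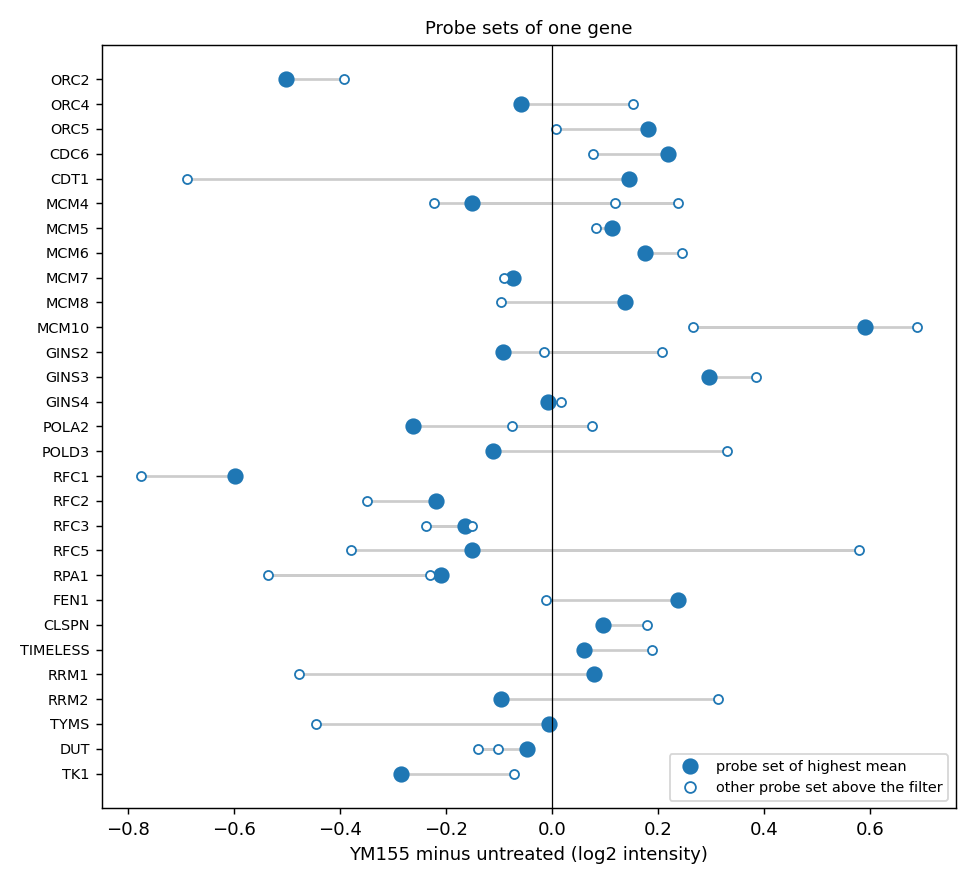
YM155 minus untreated in log2 intensity for every probe set above the filter of the 29 members with more than 1, with the brightest filled. The signs are shared within 17 members, among them ORC2, MCM10 and RFC1, and mixed within 12, among them CDT1, RFC5, RRM1 and RRM2.

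Probe set by probe set, 41 of the 96 were positive and 55 negative, and 0 passed over all probe sets (0% of 54613). At an unadjusted p under 0.05, 1 was higher (4.37% of all probe sets), that of MCM10, and 5 were lower (4.98% of all probe sets), those of ORC2, CDT1, RFC4 and RFC1, the last with 2. Of the 29 members with over 1 probe set above the filter, 17 had probe sets of the same sign and 12 of both signs. Members whose brightest probe set was contradicted in sign by a dimmer one not given above were POLD3 (0.33 ± 0.23 in the dimmer), GINS2 (0.21 ± 0.16), ORC4 (0.15 ± 0.18), POLA2 (0.077 ± 0.12), MCM8 (−0.096 ± 0.14) and GINS4 (0.017 ± 0.17).

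Other genes of the pathway were listed beside the members. Of 47 other replication genes, 44 had a usable probe set and 0 passed over all genes. There were 20 positive and 24 negative differences with a median of −0.036 log2. At an unadjusted p under 0.05, 2 genes were higher (5.23% of all genes) and 3 lower (7.48% of all genes). MCM9, the partner of MCM8 in recombination, was at 6.48 and 5.88 in untreated and at 6.86 and 7.23 in YM155 arrays (0.87 ± 0.26), and POLE3, a histone-fold subunit of polymerase epsilon, stood at 0.34 ± 0.13. DBF4B, an activator of the CDC7 kinase, was at 5.93 and 6.11 in untreated and at 5.39 and 5.18 in YM155 arrays (−0.73 ± 0.15). STN1, of the telomere-capping CST complex, stood at −0.62 ± 0.21 and DONSON, a helicase assembly factor, at −0.51 ± 0.19. Of 35 other nucleotide synthesis genes, 31 were measured, with 12 positive and a median of −0.041. At an unadjusted p under 0.05, 0 were lower (7.48% of all genes) and 1 was higher (5.23% of all genes). That was CTPS1, CTP synthase, at 7.66 and 6.93 in untreated and at 8.08 and 8.06 in YM155 arrays (0.78 ± 0.27). MCM9 ran from 0.57 to 1.16, CTPS1 from 0.41 to 1.14 and STN1 from −0.88 to −0.36 over the arrays left out.

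**Figure D5:**
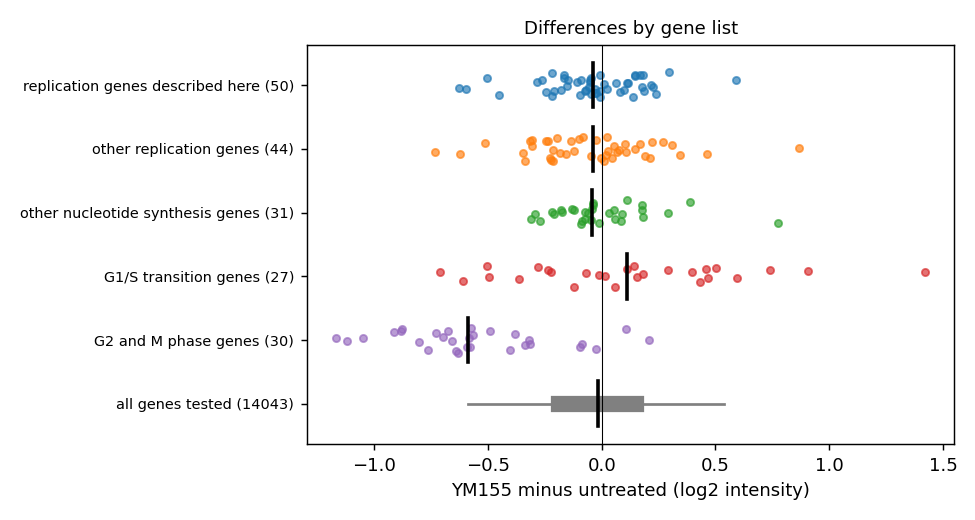
YM155 minus untreated in log2 intensity for each gene of 5 lists, with black bars at the medians; for all 14043 genes the thick bar spans the 25th to 75th and the thin line the 5th to 95th percentile. The replication genes centre at −0.038 and the G2 and M phase genes at −0.59.

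Set beside other cell cycle genes of the same arrays, the replication genes had the smaller median difference. The 30 G2 and M phase genes had 28 negative differences and a median of −0.59 log2; 13 were lower at an unadjusted p under 0.05 (7.48% of all genes) and 21 were below both untreated arrays (25.6% of all genes). Set against untreated replicate 1 alone that median was −0.30, and against replicate 2 alone −0.85. NDC80 was at 8.96 and 8.76 in untreated and at 7.72 and 7.76 in YM155 arrays (−1.12 ± 0.14; limma adjusted p = 0.163). Of the others under that unadjusted p, the largest differences were those of CDC25C, the phosphatase gene of mitotic entry, at −1.05, the centromere histone gene CENPA at −0.91 and the kinase gene AURKA at −0.88. BUB1B and TTK of the spindle checkpoint stood at −0.88 and −0.80, the spindle gene TPX2 at −0.73 and the proliferation marker MKI67 at −0.68. Among 27 of 28 G1/S transition genes measured, 7 were higher (5.23% of all genes) and 2 lower (7.48%) at an unadjusted p under 0.05, with a median of 0.11. That median was 0.024 against untreated replicate 1 alone and 0.23 against replicate 2 alone. CCNE2, a cyclin E that drives S phase entry, was at 6.63 and 6.59 in untreated and at 7.73 and 8.33 in YM155 arrays. CCNE1 stood at 0.59 ± 0.15, the cyclin D gene CCND1 at 0.74 ± 0.22 and the phosphatase gene CDC25A, which activates CDK2, at 0.47 ± 0.13. The repressors E2F7 and E2F8 stood at 0.50 ± 0.15 and −0.50 ± 0.13, and the CDK inhibitor genes went apart, CDKN1A at 0.91 ± 0.12 and CDKN1B at −0.71 ± 0.19. None of these passed over all genes. The lists share arrays and were not tested against each other.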

How the data were processed

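Total RNA labelled as untreated (2 samples) or YM155 (2 samples) was measured on Affymetrix arrays, and groups came from the titles. For each array the authors deposited an intensity for every probe set, which RMA (robust multi-array averaging) produced per the submitters' processing notes; version, settings and genome build: not given in the sources used here. The deposited intensity values ran from 2.419 to 15214, a linear scale, so log2 was taken. RMA sets arrays to a common distribution, so differences are relative to the rest of the array, and a change common to every gene is not seen. Scanner files were not used here.

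Control probe sets (62) were left out. The platform annotation gave the names (41091 probe sets with 1 symbol, 1801 with several, 11721 with none; 0 symbols needed an update from RefSeq). Probe sets with a mean below the 40th percentile (3.32 log2) were dropped and each gene was represented by its brightest probe set. Groups were compared with limma 3.58.1 in R 4.3.3 (lmFit, eBayes, two-sided, 2.69 prior and 2 residual degrees of freedom), with Benjamini-Hochberg adjustment at 0.05 over all genes, and separately over all probe sets without the filter. The procedure was run on simulated data, where the mean error and sign of planted changes and the number of false calls were checked. No share of planted changes recovered was required. With 2 arrays a group, their number limits the precision.

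The members and lists were chosen with earlier results of these data known, so lists have counts and medians but no test. Arrays are shown for members with an unadjusted p under 0.05, the 2 of each role with the largest differences, and members with probe sets past 0.3 log2 both ways. Second probe sets of some members were added after their values were seen. Of the probe sets above the filter, those opposite in sign to the brightest are all given. Other listed genes were named at an unadjusted p under 0.05, at most the 8 largest differences of a list. Alternatives were other filters (none, 60th percentile), averaging the probe sets of a gene, leaving out _x_at and _s_at probe sets, a further quantile normalization, median centring, eBayes with trend and robust, the replicate number as a block, and each array left out in turn.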

Additional observations from a re-analysis of the deposited data

How the results depend on the processing

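Under the 8 alternatives that kept all arrays, limma called 0 genes, 0 members and, where it was rerun, 0 probe sets; the members' median stayed within its replicate spread of 0.0997 log2. RFC4, ORC2, MCM10, GINS3 and PCNA were among 17 members that kept their sign under all alternatives. A further 3, RFC1, MCM7 and FEN1, kept it under those that measured them; they were among the 12 members with no probe set left when _x_at and _s_at probe sets were left out. When the probe sets of a gene were averaged, these differences changed sign (log2): ORC4 0.048, CDT1 −0.27, GINS2 0.033, GINS4 0.0047, POLD3 0.11, RFC5 0.017, RRM1 −0.20, RRM2 0.11. With _x_at and _s_at probe sets left out these did: ORC4 0.15, GINS2 0.21, POLA2 0.076, RRM2 0.31. After a further quantile normalization these did: CDC45 0.0030, GINS4 0.035. After median centring these did: GMNN 0.0023, GINS4 0.00091, TYMS 0.0025. The replicate block gave 1 member higher at an unadjusted p under 0.05 (MCM10; 4.08% of all genes in that fit) in place of 0. Whether the replicate numbers pair the samples was not settled. Same-numbered deviations had a correlation of 0.000362 over all genes, which cannot decide it. Among the 50 members, replicate 2 minus replicate 1 had a median of −0.13 log2 in untreated and −0.13 in YM155 arrays. The causes were not tested.

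With 1 array left out, 25 members changed sign, with these ranges: ORC3 −0.28 to 0.23, ORC5 −0.38 to 0.74, ORC6 −0.0047 to 0.22, CDC6 −0.11 to 0.55, GMNN −0.22 to 0.21, MCM2 −0.023 to 0.32, MCM3 −0.15 to 0.050, MCM4 −0.37 to 0.068, MCM5 −0.12 to 0.35, MCM8 −0.049 to 0.32, CDC45 −0.34 to 0.28, GINS2 −0.19 to 0.0063, GINS4 −0.24 to 0.22, POLA1 −0.26 to 0.16, POLE −0.25 to 0.28, POLD2 −0.15 to 0.011, RFC5 −0.30 to 0.000063, LIG1 −0.27 to 0.32, CLSPN −0.098 to 0.29, TIPIN −0.16 to 0.10, TIMELESS −0.26 to 0.38, RRM2 −0.40 to 0.21, TYMS −0.20 to 0.19, DUT −0.11 to 0.011, TK1 −0.77 to 0.20. Sign changes with 1 array left out were not counted over all genes. Between the 2 untreated arrays alone the sign turned for 22 members and for 5266 of 14043 genes. Genes called ran from 0 to 1125 (1125 without untreated replicate 1) and members called from 0 to 1. At an unadjusted p under 0.05, genes ran from 183 to 2382 higher and from 262 to 2048 lower, and members from 0 to 7 higher and from 0 to 6 lower. Without untreated replicate 1 the 7 higher members (17% of all genes) were ORC5, CDC6, MCM5, MCM8, MCM10, GINS3 and TIMELESS, and the 6 lower ones (14.6%) ORC1, ORC2, GINS1, RFC1, RFC4 and RRM2. Without untreated replicate 2, 0 were higher (7.63% of all genes) and 6 lower (14.2%; ORC2, ORC5, POLA2, PRIM1, RFC1 and RFC4). Without YM155 replicate 1 the 3 lower (2.47% of all genes) were RFC1, RFC4 and TK1, and without YM155 replicate 2 there were 0.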

Other observations

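Several probe sets of nucleotide synthesis and clamp loader genes were low on YM155 replicate 2 alone. The RRM1 probe set 201476_s_at read 7.97 and 8.37 log2 untreated and 8.07 and 7.31 in YM155 replicates 1 and 2. The TYMS probe set 1554696_s_at was at 9.35 and 9.01 in untreated and at 9.22 and 8.25 in YM155 arrays, and the RFC5 probe set 203210_s_at was lowest on that array too. So was the TK1 probe set 1554408_a_at, the brightest of TK1, which gives its difference of −0.29. The 3′ to 5′ log2 ratio of the ACTB control probe sets was 2.72 and 2.18 untreated and 2.10 and 2.95 after YM155, highest on the same array, and that of GAPDH was 0.042, 0.043, 0.033 and 0.21. Its part in these values was not tested.

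The 23 members with E2F letters in a promoter had a median difference of −0.0060 log2 (range −0.26 to 0.30, 10 positive and 13 negative). The 21 without them had a median of −0.097 and a wider range, from −0.63 to 0.59, with 7 positive and 14 negative. The 6 members with no promoter available were in neither group. Only exact letters were searched, so their absence does not show that E2F factors do not act on a gene. BIRC5, the gene of survivin, stood at −0.26 ± 0.18 (SE, limma adjusted p = 0.615). Its difference was −0.061 against untreated replicate 1 alone and −0.46 against untreated replicate 2 alone.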
